A study of Mus musculus with 6 samples.

Results

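The type I interferon response genes were examined as a set of 32 genes chosen by name in mouse bone marrow cells with and without cryptochromes. A member was read through the rows of the deposited table that carry its symbol and no other. Of the 32, 30 had such a row and 2, Isg15 and Ifi44, are not analysed here. In all, 18193 genes had such a row, and 12627 of them, 29 members included, passed the filter on low signal. Mx2 did not pass it.

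The study compared cultured bone marrow cells of Cry 1/2 double KO mice (DKO) with wild-type cells (WT). Cry1 and Cry2 encode the cryptochromes, repressors in the negative loop of the circadian clock. Both groups were of strain C57BL/6 and were grown in medium with 20% fetal bovine serum and interleukin-7 at 10 ng/ml, a cytokine that sustains early B cells. The sources used here do not give age, sex or any pooling of animals. Total RNA was hybridised to 1 oligonucleotide array per sample, DKO 1 to 3 and WT 1 to 3.

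Type I interferons bind the receptor IFNAR1-IFNAR2 on almost any nucleated cell, and the kinases JAK1 and TYK2 then phosphorylate STAT2, among others. STAT2 and IRF9 are parts of the factor ISGF3, which binds the interferon-stimulated response element (ISRE) in the promoters of antiviral genes. Many of these genes encode sensors of foreign RNA or the signalling factors themselves, so that a first exposure prepares a cell for the next. In bone marrow, interferon also acts on haematopoietic stem cells and on early B cells, whose growth under interleukin-7 it restrains.

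The promoters shown here are those of the 6 members with the smallest p of the comparison without WT 2 that had an entry in the promoter table. They show which of these windows hold a match to the letters of the interferon element. They are from RefSeq, build GRCm38.p6, and run from 250 bases before to 50 after a transcription start, 5′ to 3′ on the gene's strand, at the start the table lists first. They lie at chr19:34550444-34550743, plus strand, for Ifit2, chr2:62646206-62646505, minus strand, for Ifih1, chr11:101448162-101448461, plus strand, for Ifi35, chr7:104465144-104465443, minus strand, for Trim30a, chr12:26456403-26456702, minus strand, for Rsad2, and chr5:114896684-114896983, plus strand, for Oasl2. Capitals mark each match to the ISRE letters GAAANNGAAA, on either strand, to the gamma-activated site (GAS) TTCNNNGAA, or to the E-box CACGTG through which cryptochromes repress CLOCK and BMAL1.
Ifit2: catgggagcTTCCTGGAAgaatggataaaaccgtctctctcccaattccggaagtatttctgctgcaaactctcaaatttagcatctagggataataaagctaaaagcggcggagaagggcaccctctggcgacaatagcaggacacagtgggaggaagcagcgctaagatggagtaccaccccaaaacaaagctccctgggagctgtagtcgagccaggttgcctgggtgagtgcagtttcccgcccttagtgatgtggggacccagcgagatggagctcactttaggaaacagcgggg
Ifih1: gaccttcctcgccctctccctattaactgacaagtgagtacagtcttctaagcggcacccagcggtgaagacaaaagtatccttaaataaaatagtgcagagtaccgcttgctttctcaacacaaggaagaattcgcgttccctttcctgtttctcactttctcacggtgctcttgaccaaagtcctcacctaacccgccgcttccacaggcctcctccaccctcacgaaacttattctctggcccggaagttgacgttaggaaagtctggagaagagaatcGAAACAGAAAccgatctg
Ifi35: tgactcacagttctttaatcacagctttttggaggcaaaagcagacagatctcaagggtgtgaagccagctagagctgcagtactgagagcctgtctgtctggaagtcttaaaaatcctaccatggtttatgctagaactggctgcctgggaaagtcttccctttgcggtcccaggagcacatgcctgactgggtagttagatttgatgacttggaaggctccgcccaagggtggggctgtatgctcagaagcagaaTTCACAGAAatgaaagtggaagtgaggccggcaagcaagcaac
Trim30a: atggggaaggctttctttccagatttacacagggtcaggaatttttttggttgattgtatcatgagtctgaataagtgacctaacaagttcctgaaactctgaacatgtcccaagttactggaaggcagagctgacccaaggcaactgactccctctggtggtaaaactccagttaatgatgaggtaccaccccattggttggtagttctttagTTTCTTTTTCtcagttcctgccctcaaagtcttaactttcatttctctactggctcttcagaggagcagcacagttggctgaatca
Rsad2: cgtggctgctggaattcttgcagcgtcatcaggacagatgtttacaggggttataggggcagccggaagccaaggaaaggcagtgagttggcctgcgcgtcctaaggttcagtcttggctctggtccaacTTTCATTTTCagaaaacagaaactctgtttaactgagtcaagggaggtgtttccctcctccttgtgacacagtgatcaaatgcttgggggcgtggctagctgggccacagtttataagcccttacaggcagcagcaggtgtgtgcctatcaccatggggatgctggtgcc
Oasl2: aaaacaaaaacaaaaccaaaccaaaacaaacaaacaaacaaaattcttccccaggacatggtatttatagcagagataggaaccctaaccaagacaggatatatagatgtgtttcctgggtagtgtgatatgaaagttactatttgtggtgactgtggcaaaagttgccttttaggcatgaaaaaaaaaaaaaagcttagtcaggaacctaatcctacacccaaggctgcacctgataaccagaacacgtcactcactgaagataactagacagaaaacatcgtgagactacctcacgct

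Rsad2, Trim30a and Ifih1 each held 1 ISRE match, Ifit2 and Ifi35 each held 1 GAS match, and the Oasl2 window held none of these letters. The table listed 24 of the 32 members, Isg15 and Ifi44 among them. An ISRE match lay in 11 of the 24, 45.8%, and in 3.49% of the promoters of all 27025 genes of the table. A GAS match lay in 4 of the 24, 16.7%, against 8.47% of all genes, and an E-box in 1, that of Trim25, 4.17% against 7.24%. No match of 1 kind overlapped a match of another. In Isg15, which encodes the ubiquitin-like modifier, 3 ISRE matches lay in a row, each overlapping the next, and Oas1a held 2 that overlapped. A match describes letters in a window and does not show that a factor binds there. A window without a match does not show that the gene lacks the element, since 1 start per gene and fixed letters were searched.

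**Figure D1:**
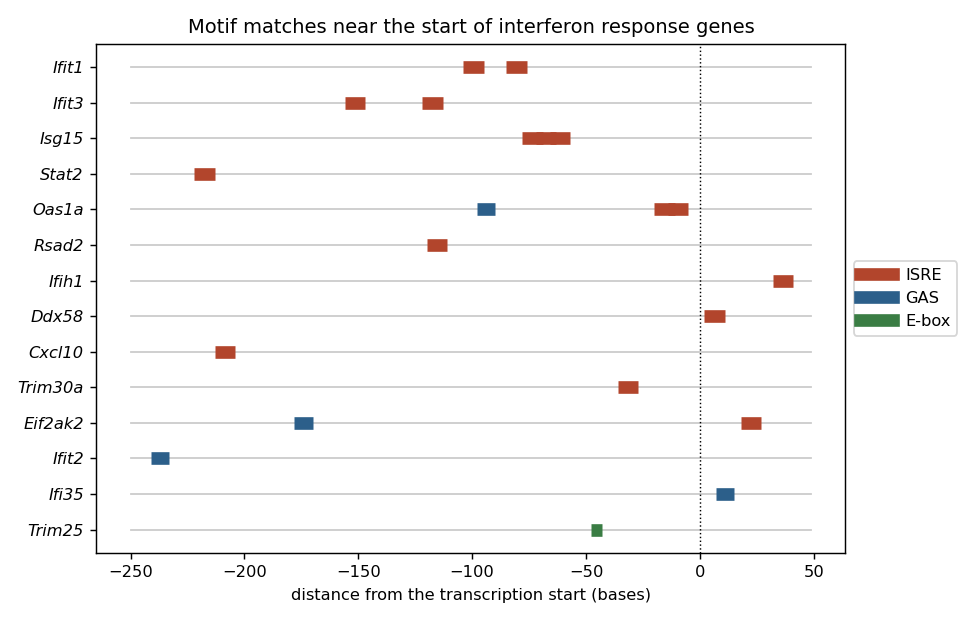
Each line is the promoter window of 1 member with at least 1 match, from 250 bases before to 50 after the transcription start (dotted line, at 0). Coloured blocks are matches to the ISRE (11 members), GAS (4 members) and E-box (1 member) letters on either strand.

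WT 2 stood apart from the other arrays. Its 3′ to 5′ signal ratio for the Actb control was 824, against 1.47 to 2.05 elsewhere, and its median signal was 115 against at most 55.3. Counts are therefore given with WT 2 and without it, and a difference is the one without WT 2 unless stated. With all 6 arrays, each was centred on its median, which lowered WT 2 by 0.82 on the log2 scale and raised the others by 0.06 to 0.31. Cry1, the targeted gene with the larger difference, read 359, 399 and 545 in DKO 1 to 3, against 1533, 1502 and 955 in WT 1 to 3, and Cry2 read 133 to 178 and 102 to 145. Whether these rows lie in the deleted parts was not analysed here. Of 10 B lineage markers, the cells that interleukin-7 sustains, 9 were measured, and none lay below the array median on all 5 arrays other than WT 2. The early B cell gene Vpreb1 read 13707 to 21211 on these 5.

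No interferon response gene passed the threshold. With all 6 arrays, limma adjusted p lay between 0.822 and 0.976 over the 29 tested members, and 0 of them were called, where 0.0074% of all 27022 tested rows were called. Without WT 2 the range was 0.896 to 0.985 and again 0 were called, against 0.0185% of all rows. At an unadjusted p under 0.05 without WT 2, 4 members read higher in DKO and 1 lower, where 2.15% and 1.8% of all genes did. These counts were 1 and 2 with all 6 arrays, where 272 and 141 of all 12627 tested genes were higher and lower at that p. Nothing in the labels tells whether the 3 arrays of a group stand for separate animals, so each p measures only the spread between these samples, and that may be technical.

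The members read slightly higher in DKO than in WT, though no single gene was called. Without WT 2 the median log2 difference of the 29 members was 0.23, with 22 on the higher and 7 on the lower side, 75.9% higher. Over all tested genes the median was 0.03 and 54.0% were higher. With all 6 arrays the same counts, 22 and 7, stood beside a median of 0.33, but there the median of all genes was 0.30 and 70.2% were higher. With quantile normalization of the 6 arrays the members' median was -0.02 and 13 of 29 were higher. All differences are on the scale log2(signal + 16), given with their standard error (SE), a scale that understates the change of dim genes.

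**Figure D2:**
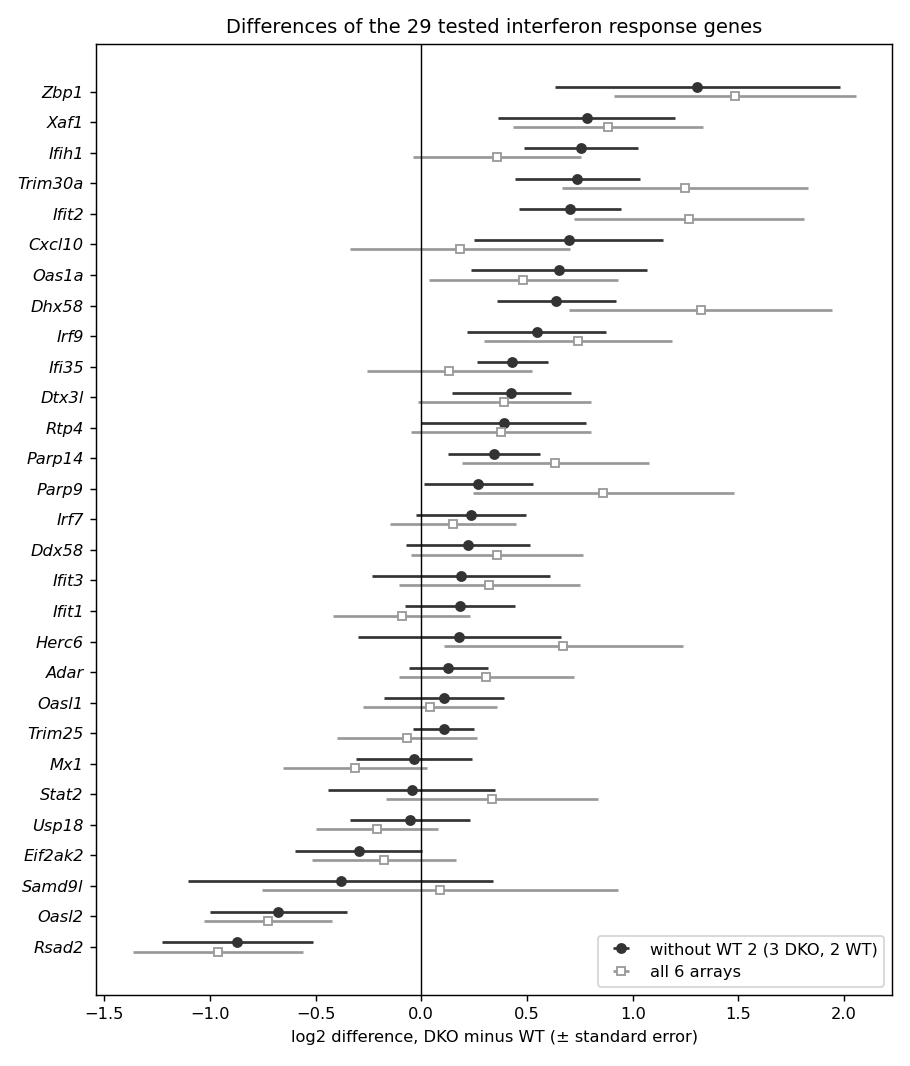
Log2 differences (DKO minus WT) of the 29 tested members, with standard errors from limma, without WT 2 (filled circles) and with all 6 arrays (open squares). Zbp1 lies at the top at 1.31 and Rsad2 at the bottom at -0.87 without WT 2, and 22 of 29 filled circles lie above 0.

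The factors that carry the interferon signal to the nucleus overlapped between the groups. Irf9, the DNA-binding part of ISGF3, read 811, 1172 and 577 in DKO 1 to 3, against 492, 714 and 628 in WT 1 to 3. DKO 1 and DKO 2 were above WT 1 and WT 3, and DKO 3 lay between them. The log2 difference of Irf9 was 0.55 (SE 0.33) without WT 2, and 0.74 with all 6 arrays. Stat2, its partner, read 62.8, 141 and 148 in DKO 1 to 3, against 101, 97.4 and 130 in WT 1 to 3. DKO 1 had the lowest Stat2 signal of the 6, and the groups overlapped. Its difference was -0.04 without WT 2 and 0.33 with all 6 arrays, and the other Stat2 row read -0.32 and -0.06. Irf7, the factor that amplifies interferon production, read 113, 153 and 137 in DKO 1 to 3, against 106, 274 and 117 in WT 1 to 3. Its difference was 0.23 (SE 0.26) without WT 2.

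Of the 3 sensors of viral RNA, Ifih1 and Dhx58 read higher in DKO without overlap once WT 2 was left out, Ddx58 overlapped, and none was called. Ifih1, which encodes the sensor of long double-stranded RNA MDA5, read 206, 201 and 156 in DKO 1 to 3, against 117, 508 and 91.8 in WT 1 to 3. Only WT 2 lay above the DKO arrays. Without it the means were 7.66 ± 0.20 (SD, n = 3) and 6.90 ± 0.22 (SD, n = 2), a log2 difference of 0.75 (SE 0.27), or 1.69-fold, and with all 6 arrays the difference was 0.36, or -0.11 after quantile normalization. Dhx58, which encodes LGP2, a regulator of these sensors, read 266, 219 and 282 in DKO 1 to 3, against 128, 64.4 and 194 in WT 1 to 3. Every DKO array was above every WT array as deposited, but after centring WT 3 lay just above DKO 2. The Dhx58 difference was 0.64 (SE 0.28) without WT 2 and 1.32 with all 6 arrays, and a second row read 0.29 and -0.05. Ddx58, which encodes RIG-I, the sensor of RNA with a free 5′ triphosphate, read 449, 536 and 380 in DKO 1 to 3, against 301, 561 and 490 in WT 1 to 3. The Ddx58 groups overlapped, with a difference of 0.22 without WT 2 and -0.18 in another tested row. A further, dim Ddx58 row, tested only without WT 2, read -0.45, with every DKO array below WT 1 and WT 3.

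Zbp1 had the largest difference of the 29, and its signal was highest on DKO 1 and DKO 2. Zbp1 senses Z-form nucleic acids and can trigger cell death. It read 319, 632 and 103 in DKO 1 to 3, against 117, 142 and 90.9 in WT 1 to 3. DKO 3 lay between WT 1 and WT 3. The difference was 1.31 (SE 0.67, limma adjusted p = 0.896) without WT 2, and 1.48 with all 6 arrays. A second Zbp1 row read 124, 340 and 126 in DKO 1 to 3, against 9.11, 12.6 and 86.8 in WT 1 to 3, a difference of 1.92 without WT 2. In that row DKO 3 did lie above every WT array. Xaf1, a partner of the apoptosis inhibitor XIAP, was also highest on DKO 2 and DKO 1, at 777, 956 and 365 in DKO 1 to 3, against 337, 585 and 407 in WT 1 to 3. Its difference was 0.78 (SE 0.42) without WT 2, and the second Xaf1 row read 0.55.

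Of the IFIT genes, whose proteins bind viral RNA, Ifit2 was separate between the groups, Ifit1 and Ifit3 overlapped, and none was called. Ifit2 read 462, 575 and 415 in DKO 1 to 3, against 278, 165 and 300 in WT 1 to 3. Every DKO array was above every WT array, with and without WT 2. The Ifit2 means without WT 2 were 8.95 ± 0.23 (SD, n = 3) and 8.25 ± 0.07 (SD, n = 2), a log2 difference of 0.70 (SE 0.24), or 1.63-fold, and with all 6 arrays it was 1.27. Ifit1 was dim, at 45.6, 58.3 and 52.6 in DKO 1 to 3, against 46.0, 188 and 41.9 in WT 1 to 3. On the 5 arrays other than WT 2 it exceeded the array median on 2. Ifit3 read 49.3, 82.0 and 142 in DKO 1 to 3, against 85.6, 112 and 60.3 in WT 1 to 3. The differences of Ifit1 and Ifit3 without WT 2 were 0.18 and 0.19, with standard errors of 0.26 and 0.42. Ifit1 read -0.09 with all 6 arrays.

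Rsad2 and Oasl2 read lower in DKO, against the direction of most members. Rsad2 encodes viperin, an enzyme that makes a chain-terminating nucleotide. It read 78.5, 86.2 and 167 in DKO 1 to 3, against 194, 497 and 217 in WT 1 to 3. Every DKO array was below every WT array as deposited, and after centring DKO 3 lay just above WT 1. The difference was -0.87 (SE 0.36) without WT 2, or 1.83-fold, and -0.96 with all 6 arrays. A second Rsad2 row read 42.5 to 51.0 on the DKO arrays and 76.0 to 219 on the WT arrays, a difference of -0.64, and the other read -0.13. Oasl2, a relative of the oligoadenylate synthetases, read 19.5, 17.4 and 30.0 in DKO 1 to 3, against 58.5, 112 and 33.3 in WT 1 to 3. These groups did not overlap with or without WT 2, but 4 of the 5 other arrays lay below their median signal, so the levels are near the floor of the arrays. The Oasl2 difference was -0.68 (SE 0.32) without WT 2.

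The rows that stand for the other tested antiviral effectors overlapped between the groups. Oas1a, a synthetase that activates RNase L, read 590, 902 and 393 in DKO 1 to 3, against 503, 1041 and 275 in WT 1 to 3, a difference of 0.65 (SE 0.42) without WT 2. Oasl1 read 90.3, 92.3 and 137 in DKO 1 to 3, against 96.3, 230 and 95.7 in WT 1 to 3, a difference of 0.11. Mx1 encodes an antiviral GTPase that is disrupted in C57BL/6 and most other laboratory strains. Mx1 lay below the median signal on all 5 arrays other than WT 2, at 26.5 to 39.3, with a difference of -0.03. Mx2, its relative that acts in the cytoplasm, lay below it too, at 5.22 to 14.9, and was not tested. Eif2ak2, the kinase PKR that halts translation, read 189, 284 and 166 in DKO 1 to 3, against 285, 395 and 235 in WT 1 to 3. Its difference was -0.30 without WT 2, and 2 further rows read -0.32 and -0.63. In both further Eif2ak2 rows every DKO array was below WT 1 and WT 3, and in the first of them below WT 2 too. Adar, which edits double-stranded RNA, read 997, 1082 and 1054 in DKO 1 to 3, against 884, 1263 and 1030 in WT 1 to 3, a difference of 0.13 (SE 0.19). Its other 2 rows read -0.35 and -0.12, opposite in sign. Samd9l, a restriction factor that limits growth of blood cells, varied widely within the groups, at 421, 827 and 2305 in DKO 1 to 3, against 768, 874 and 1935 in WT 1 to 3. DKO 3 and WT 3 shared its high signal, and the difference was -0.38 (SE 0.72). Rtp4 read 309, 517 and 457 in DKO 1 to 3, against 462, 636 and 214 in WT 1 to 3, a difference of 0.39.

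Among the genes for ubiquitin, ISG15 and ADP-ribose transfer, the rows that stand for Trim30a and Parp14 were separate between the groups, and their second rows overlapped. Trim30a, a ubiquitin ligase family member that dampens Toll-like receptor signalling, read 1567, 1755 and 1178 in DKO 1 to 3, against 673, 578 and 1152 in WT 1 to 3. DKO 3 and WT 3 were nearly level. The difference was 0.74 (SE 0.30) without WT 2, or 1.67-fold, and 1.25 with all 6 arrays, while the second Trim30a row read 0.25 and 0.03. The signals of that second row were 1088, 933 and 592 in DKO 1 to 3, against 706, 2196 and 706 in WT 1 to 3. Parp14, a mono-ADP-ribosyltransferase, read 899, 998 and 754 in DKO 1 to 3, against 638, 719 and 745 in WT 1 to 3, a difference of 0.34 (SE 0.22). Here too DKO 3 lay just above WT 3. A second, dim Parp14 row read 75.9, 55.3 and 24.7 in DKO 1 to 3, against 43.7, 25.9 and 35.1 in WT 1 to 3, a difference of 0.22.

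Parp9 and Dtx3l, whose products form a complex, overlapped between the groups. Parp9 read 1200, 1973 and 1436 in DKO 1 to 3, against 1106, 689 and 1400 in WT 1 to 3, a difference of 0.27. Dtx3l read 1345, 1527 and 921 in DKO 1 to 3, against 777, 1899 and 1080 in WT 1 to 3, a difference of 0.43, and -0.08 in its second row. Usp18, the protease that removes ISG15 and blocks the interferon receptor, read 83.1, 108 and 68.4 in DKO 1 to 3, against 89.4, 264 and 88.7 in WT 1 to 3, a difference of -0.05 (SE 0.28). Herc6, the main ISG15 ligase of the mouse, read 419, 303 and 125 in DKO 1 to 3, against 230, 148 and 214 in WT 1 to 3. Its difference was 0.18 without WT 2, and its other 3 rows read -1.13 to 0.14. Trim25, a ligase that activates RIG-I, read 5339, 4371 and 4654 in DKO 1 to 3, against 4216, 12176 and 4664 in WT 1 to 3, a difference of 0.11, and its other rows read 0.18 and -0.57.

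Cxcl10, the chemokine that draws activated T cells, was near the array median on all 5 arrays but WT 3, at 44.5 to 51.0 on the DKO arrays, 49.2 on WT 1, 205 on WT 2 and 8.04 on WT 3. Its difference was 0.70 without WT 2, and -0.023 when WT 3 was left out too. Ifi35, a leucine zipper protein, read 5857, 5728 and 6495 in DKO 1 to 3, against 3822, 15906 and 5203 in WT 1 to 3. Without WT 2 its groups were separate, with a difference of 0.43 (SE 0.17), or 1.35-fold, and 2 further rows read 0.23 and 0.59. It was 0.13 with all 6 arrays.

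**Figure D3:**
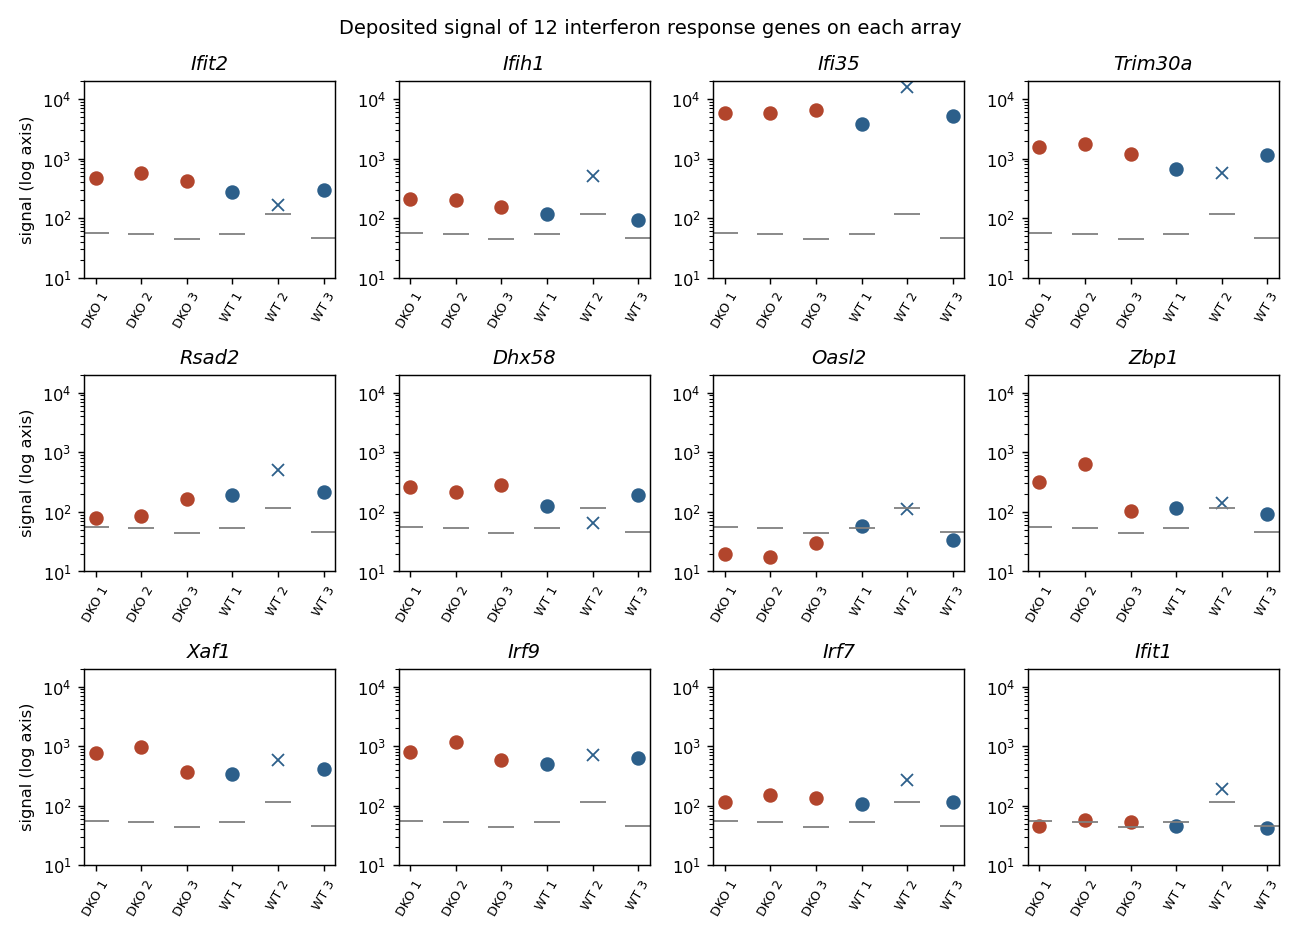
Deposited signal (log axis) of 12 members on the 6 arrays, DKO in red and WT in blue, with WT 2 as a cross and the array median as a grey bar. Ifit2 and Trim30a are higher on every DKO array, Oasl2 is lower, and Zbp1 is high on DKO 1 and DKO 2 with DKO 3 at 103.

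Without WT 2, the groups did not overlap in 8 of the 29 tested members. DKO was higher in 6, Ifit2, Ifih1, Dhx58, Trim30a, Ifi35 and Parp14, where 10.7% of all tested genes showed that, and lower in 2, Rsad2 and Oasl2, where 7.87% did. With all 6 arrays after centring, DKO was higher in 4, Ifit2, Zbp1, Trim30a and Parp14, against 8.53% of genes, and lower in 1, Oasl2, against 2.06%. The 2 settings shared Ifit2, Trim30a, Parp14 and Oasl2. Each member was counted by its row with the highest mean, and the second rows of Trim30a and Parp14 overlapped. Of 14 members with over 1 tested row, the rows had opposite signs in 5 with all 6 arrays and in 5 without WT 2. Without WT 2 these were Ddx58, Dtx3l, Herc6, Trim25 and Adar.

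The members' highest values were mostly on DKO 2. Of the 5 arrays other than WT 2, DKO 2 had the highest signal in 16 of 29 members, where it had the highest in 19.3% of all tested genes. DKO 3 had it in 7 members and 19.9% of genes, DKO 1 in 3 members and 30.2% of genes, WT 1 in 2 and 17.4%, and WT 3 in 1 and 13.2%. These counts were chosen after values were seen. The median of the members, taken against 5-array means, came to -0.02, 0.23 and 0.21 for DKO 1 to 3, and to -0.26 and 0.03 for WT 1 and WT 3. The medians of all tested genes were -0.04, -0.05 and 0.13 for DKO 1 to 3, and -0.09 and 0.08 for WT 1 and WT 3. Both sets of medians used levels centred with all 6 arrays, unlike the signal counts above and the differences without WT 2. That centring raised DKO 3 by 0.31 and WT 3 by 0.26, but DKO 1, DKO 2 and WT 1 by only 0.06 to 0.09. The order of the arrays by these medians therefore depends on the centring. DKO 3 was the lowest of the DKO arrays in 14 of 29 members, against 46.0% of all genes. Leaving out DKO 3 as well as WT 2 gave limma calls for 2 of 28 members, Zbp1 at 1.96 (adjusted p = 0.0467) and Xaf1 at 1.18 (adjusted p = 0.0451), with 891 rows called in all. The fit without WT 2 alone tested 27022 rows and called 5. DKO 3 had the lowest DKO signal of both genes, 103 and 365, so leaving it out raised their DKO means and narrowed their DKO spread. Why that fit called more rows was not tested. Leaving out DKO 2 as well as WT 2 gave 0 calls and a members' median of 0.19.

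Summed marker signals differed between these arrays, for the B lineage and for other cell types. The 9 measured B lineage markers summed to 105400, 109326 and 66284 in DKO 1 to 3, against 70886, 136162 and 72024 in WT 1 to 3. Single B lineage markers went opposite ways. Rag1 read 1513, 1200 and 2472 in DKO 1 to 3, against 2855, 844 and 4053 in WT 1 to 3. Dntt read 10162, 10083 and 1079 in DKO 1 to 3, against 1314, 3466 and 495 in WT 1 to 3. Their differences without WT 2 were -1.04 and 2.55, and neither was called. All 7 plasma cell markers were measured and summed to 36548, 31704 and 24672 in DKO 1 to 3, against 26906, 40008 and 26963 in WT 1 to 3. Without WT 2, Jchain differed by 4.15, Mzb1 by 0.28 and Xbp1 by 0.10. Sdc1, Irf4 and Prdm1 differed by -0.89, -0.50 and -0.29, Tnfrsf17 was not tested, and none was called. The summed signal of 10 measured T and NK cell markers was 1039, 1682 and 341 in DKO 1 to 3, against 397, 1191 and 367 in WT 1 to 3. Of these markers Gzma and Ncr1 lay below the array median on all 5 arrays. Cd8a did not follow the sum, at 68.1, 111 and 47.8 in DKO 1 to 3, against 112, 243 and 84.5 in WT 1 to 3. All 7 markers of plasmacytoid dendritic cells, a main source of type I interferon, were measured and summed to 5580, 6171 and 2740 in DKO 1 to 3, against 3924, 5730 and 2772 in WT 1 to 3. Tcf4, which B lineage cells express too, had the highest mean signal of them, at 1193 to 3554 over the 6 arrays. Cox6a2 read 649, 1390 and 156 in DKO 1 to 3, against 138, 384 and 105 in WT 1 to 3, so it too was highest on DKO 1 and DKO 2, and without WT 2 its groups did not overlap. In contrast, Ccr9 and Pacsin1 were below the array median on all 5 arrays and Siglech read 11.8 to 57.5 on them. Klk1 was lowest on DKO 1 and DKO 2, at 338, 302 and 444 in DKO 1 to 3, against 455, 1617 and 411 in WT 1 to 3. The 8 measured granulocyte markers of 10 summed to 570, 496 and 26126 in DKO 1 to 3, against 71501, 176838 and 18277 in WT 1 to 3. The 9 measured macrophage and monocyte markers of 10 summed to 16936, 9556 and 22626, and to 42402, 57814 and 13398. In bulk RNA, fewer cells of a type and less RNA per cell cannot be told apart. The part of these cells in the interferon genes was not tested.

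**Figure D4:**
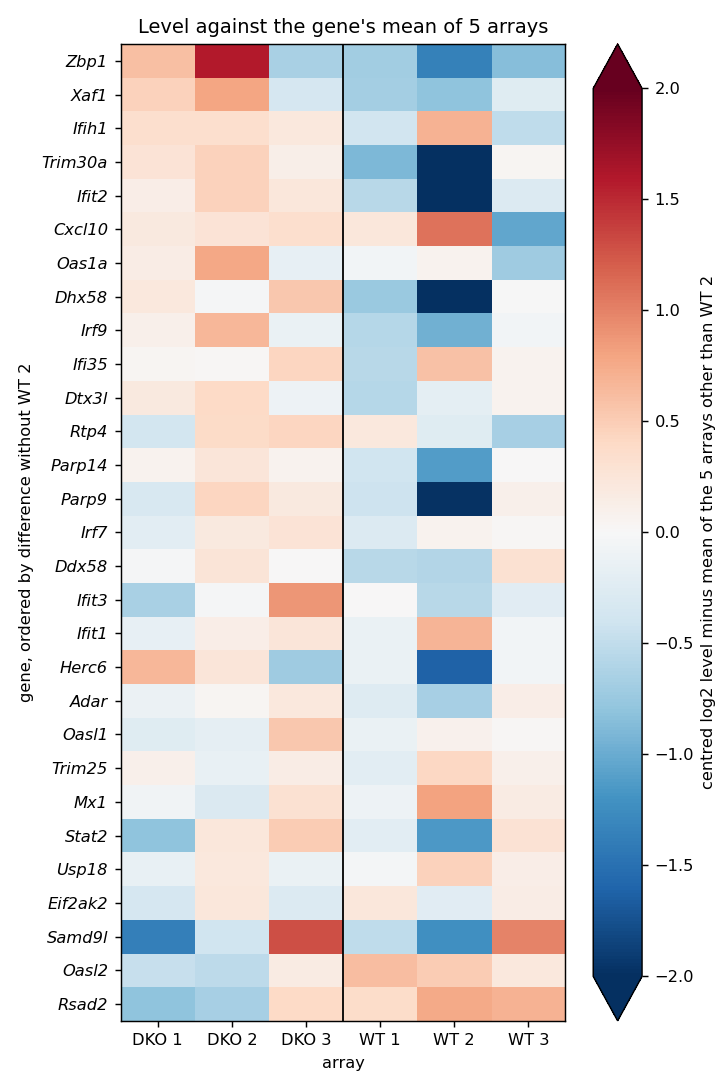
Centred log2 level of each of the 29 tested members against its mean over the 5 arrays other than WT 2, by array, with the colour scale ending at 2 in either direction. The top rows, Zbp1 and Xaf1, are high on DKO 1 and DKO 2, and Samd9l is high on DKO 3 and WT 3.

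**Figure D5:**
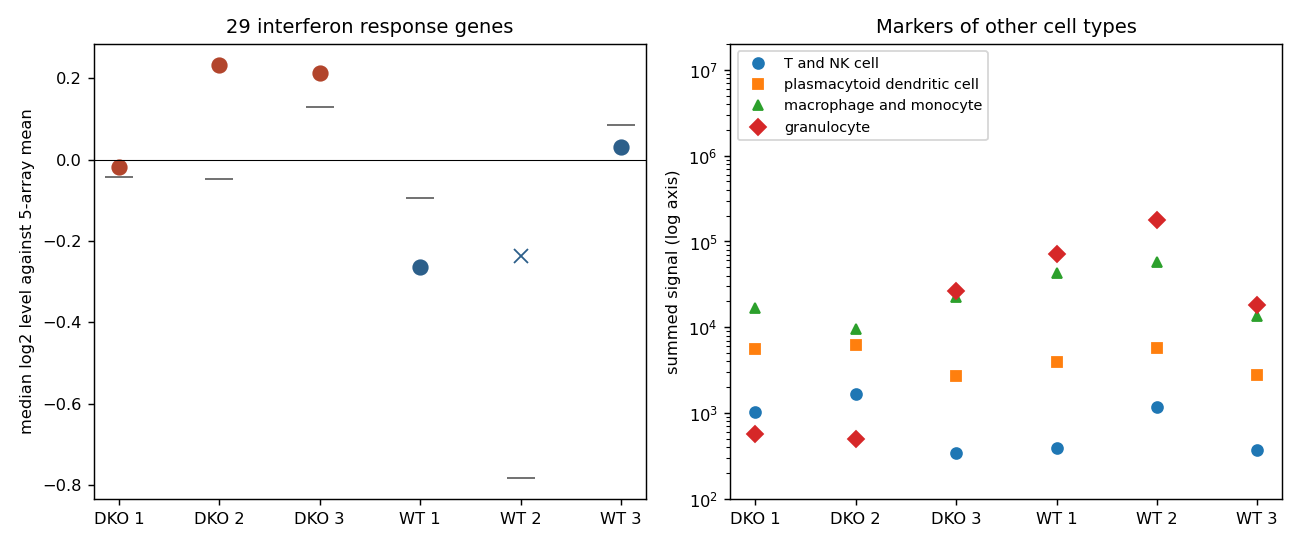
Left, the median of the 29 members on each array against the 5-array mean (DKO red, WT blue, WT 2 as a cross), with the median of all tested genes as a grey bar, and right, the summed signal of 4 marker lists (log axis). DKO 2 and DKO 3 reach 0.23 and 0.21 on the left, while T and NK cell markers are high on DKO 1 and DKO 2 and granulocyte markers are low there.

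The ligands, receptors and kinases upstream of the response were not called either. Of 24 listed genes, 18 were measured and 12 tested, and limma called 0 with all 6 arrays and 0 without WT 2, with 0 at an unadjusted p under 0.05 in both. Without WT 2, 8 were on the higher and 4 on the lower side, with a median log2 difference of 0.17. Of all tested genes 54.0% were higher there, with a median of 0.03. Of the measured type I interferon genes, Ifnb1 and Ifnz passed the filter, and Ifnb1 read 71.9, 49.5 and 40.2 in DKO 1 to 3, against 37.6, 153 and 29.5 in WT 1 to 3. Ifnb1 was dim, above the array median on 1 of the 5 arrays other than WT 2, and its difference without WT 2 was 0.48 (SE 0.31). Ifnar1 and Ifnar2, the receptor chains, differed by -0.06 and -0.12 without WT 2, with standard errors of 0.22 and 0.21. Jak1 differed by -0.20 and Tyk2 by 0.05. With all 6 arrays Ifnar2 read -0.66 and Jak1 1.30, where WT 2 stood at 6650 for Ifnar2 and at 217 for Jak1 and the other arrays read 872 to 1181 and 2168 to 2819. Ifnlr1, the receptor chain for interferon lambda, read 240, 336 and 59.8 in DKO 1 to 3, against 94.6, 193 and 53.2 in WT 1 to 3, and Stat3 differed by 0.28 without WT 2.

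Nucleic acid sensors, adaptors and regulators showed 14 higher and 12 lower of 26 tested without WT 2, of 29 measured and 32 listed, with a median of 0.06. None was called, and 1 higher and 0 lower had an unadjusted p under 0.05 there, with 0 in either direction with all 6 arrays. Of all genes, 54.0% were higher without WT 2, and 2.15% higher and 1.8% lower had such a p. Irf1, a factor that interferon gamma induces strongly, read 4129, 5864 and 1337 in DKO 1 to 3, against 1490, 1338 and 1638 in WT 1 to 3. DKO 1 and DKO 2 lay above every WT array and DKO 3 was level with WT 2, the lowest of them. Irf1 differed by 1.02 (SE 0.58). Irf8, a factor of B and myeloid cells, read 8655, 9656 and 5391 in DKO 1 to 3, against 4059, 1845 and 4984 in WT 1 to 3, without overlap, a difference of 0.77 (SE 0.26) without WT 2.

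Of 75 further interferon-stimulated genes, 62 that are no members were measured and 59 were in the comparison without WT 2, with 39 higher, 20 lower and a median of 0.29. None was called in it or with all 6 arrays (58 tested), and at an unadjusted p under 0.05 there were 3 higher and 2 lower, and 2 higher and 3 lower. Of all genes, 267 were higher and 223 lower at that p of 12415 without WT 2, and 272 and 141 of 12627 with all 6 arrays. Without WT 2, 54.0% of all genes were on the higher side. Ifitm1, a membrane protein that blocks viral entry, had the smallest p of the list, lower in DKO. It read 1928, 1917 and 1428 in DKO 1 to 3, against 4522, 11841 and 3727 in WT 1 to 3, with every DKO array below every WT array. The log2 difference was -1.23 (SE 0.20, limma adjusted p = 0.412) without WT 2, and -1.43 with all 6 arrays. Slfn4, a Schlafen gene of myeloid cells, read 18.8, 30.8 and 139 in DKO 1 to 3, against 298, 696 and 124 in WT 1 to 3, a difference of -1.73. DKO 1 and DKO 2 had the lowest Slfn4 signals, and they had the lowest granulocyte marker sums too, 570 and 496, whose part in this was not tested.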

How the data were processed

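Expression was measured in 6 samples, 3 DKO and 3 WT. The deposited values are intensity per probe set, made by the authors with MAS5 per the submitters' processing notes, whose version the sources used here do not give. The trimmed mean was 500 on every array, so arrays had been scaled to 1 target.

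Of the rows other than controls, 34945 carried 1 gene symbol, 932 several and 9160 none, and 34741 of these matched GRCm38.p6 by gene identifier. A gene was read by the row with the highest mean. Values were log2(intensity + 16). Arrays were centred on their median where medians differed by over 0.5, which was so with all 6 arrays (1.13) and not without WT 2. Rows above percentile 40 of the mean were tested with limma 3.58.1 in R 4.3.3 (variance trend, two-sided, Benjamini-Hochberg over all tested rows, 0.05). The fit was tested on simulated data. Tables and figures used Python 3.11.15.

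The members and lists were chosen with earlier results of these data known. Named were all members, of each other list the called genes or the 2 with the smallest p with all 6 arrays, and Ifnar1, Ifnar2, Jak1 and Tyk2, and, outside that rule, Ifnb1, Ifnz and markers. The numbers in the titles are not said to pair arrays and were not taken to. Deviations from the group means of arrays with the same number correlated at -0.15, -0.00 and 0.33. These means include WT 2, so the correlations cannot settle whether arrays are paired. The number of arrays limits precision. Other settings were quantile normalization, other or no centring, pseudocounts of 1 and 64, other filters, array weights, a replicate block, the mean of a gene's rows, and arrays left out.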

Additional observations from a re-analysis of the deposited data

How the results depend on the processing

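The count of rows called over the whole table was 2, and it was 0 with quantile normalization, with centring over the tested rows, with no centring, with a pseudocount of 1 and with the replicate block, 1 with a filter at percentile 60 and 8129 with array weights. With 1 array left out, or WT 2 and 1 other, it ran from 0 to 891. Quantile normalization without WT 2 gave 5. Without WT 2 the count was 5, with 3 under the replicate block, which there pairs 2 of the 3 DKO arrays, and 0 to 891 with 1 more array left out. Members called were 0, except 15 with array weights, a calculation that stopped before it converged and gave WT 1 a weight of 30.8 and the others 0.0526 to 3.18, and 2 without WT 2 and DKO 3, so 0 to 2 over arrays left out. Other interferon pathway genes called were 0, except 44 with array weights and 13 without WT 2 and DKO 3, 0 to 13 over arrays left out. Array weights called 8129 rows in all, and the fit without WT 2 and DKO 3 called 891. The median difference of the members, 0.33, was -0.021 with quantile normalization, 0.042 with centring over the tested rows and 0.023 with no centring, where the median of all genes also fell, from 0.30 to 0.01, 0.01 and -0.01. The replicate block changed no call of a member. It left the members' median at 0.33, as it must with 1 DKO and 1 WT array per number.

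Single members changed sign against the comparison of all 6 arrays as follows, none of them called with all 6 arrays, and the cause was not tested. With quantile normalization Adar read -0.15, Ddx58 -0.10, Dtx3l -0.021, Ifih1 -0.11, Irf7 -0.16, Oas1a -0.0079, Oasl1 -0.21, Rtp4 -0.13 and Samd9l -0.39. With centring over the tested rows Cxcl10 read -0.11, Ifi35 -0.16, Irf7 -0.14, Oasl1 -0.25 and Samd9l -0.20. With no centring Adar read -0.0051, Cxcl10 -0.13, Ifi35 -0.18, Irf7 -0.16, Oasl1 -0.27 and Samd9l -0.22. A pseudocount of 64 gave Cxcl10 -0.0044 and Oasl1 -0.0062. With array weights Ifit1 read 0.21, Ifit3 -0.10, Oasl1 -0.00094, Trim25 0.14 and Usp18 0.13. The mean of a gene's rows gave Eif2ak2 0.062, Herc6 -0.039 and Trim25 0.49. With quantile normalization without WT 2 Ifit1 read 0.16, Samd9l -0.39, Stat2 -0.049 and Trim25 0.11, and with the replicate block without WT 2 Ifit1 0.12, Mx1 0.071, Samd9l -0.30, Stat2 -0.20 and Trim25 0.17. Leaving out WT 2 alone gave the same 4 signs, Ifit1 0.18, Samd9l -0.38, Stat2 -0.04 and Trim25 0.11, while Mx1 read -0.03 there. Over arrays left out Ifit1 ran from -0.24 to 0.25, Trim25 -0.23 to 0.18, Ifit3 -0.14 to 0.68, Oasl1 -0.21 to 0.20, Ifi35 -0.16 to 0.65, Samd9l -1.04 to 0.71, Stat2 -0.23 to 0.72, Cxcl10 -0.38 to 1.42, Herc6 -0.16 to 1.06, Mx1 -0.51 to 0.071, Usp18 -0.33 to 0.079, Ddx58 -0.12 to 0.65 and Rtp4 -0.14 to 0.92. Ifit2, Irf9, Xaf1, Zbp1, Dhx58, Trim30a, Parp14 and Parp9 stayed higher and Rsad2 and Oasl2 lower in every setting run. Fits without WT 2 and 1 other array compare 2 with 2 or 3 with 1, and a lone WT sample is then assumed to vary like the DKO group. Signals near or below the array median limit Ifit1, Mx1, Mx2, Oasl2 and Cxcl10.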
